A study of Mus musculus with 20 samples.

Results

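The 42 genes described here act in DNA replication and in the S phase of the cell cycle. The rule takes the genes whose symbol is on a list of replication genes, and all 42 were held by both deposited count tables, which list 11746 entries for GFP-high and 11779 for GFP-low cells. Before a cell copies its DNA, the Mcm2 to Mcm7 subunits are loaded on origins as a ring-shaped helicase. In S phase Cdc45 and the GINS complex activate this ring, and polymerases delta and epsilon copy both strands with the sliding clamp PCNA. Ribonucleotide reductase supplies deoxynucleotides, and chaperones rebuild chromatin behind the fork. In the small-intestinal crypt, both the Lgr5+ stem cells and their transit-amplifying daughters divide, and replication genes are switched off as cells leave the crypt and differentiate. Many replication genes are textbook targets of the E2F transcription factors.

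RNA was sequenced from viable EpCAM+ small-intestinal crypt cells that lacked CD45, CD31 and TER119. All mice were C57BL/6J, 8 weeks old and carried the Lgr5-GFP reporter, whose signal set the sort gates; the submitters name the GFP-high gate stem cells and the GFP-low gate transit-amplifying cells. Wild type (WT) mice were Itgb7+/+ and knockout (KO) mice Itgb7-/-, which lack the integrin beta 7 chain, known mainly for lymphocyte homing to the gut. The 20 libraries made 4 groups of 5, numbered 1, 3, 6, 7 and 8 in WT and 2, 3, 4, 5 and 6 in KO. The labels do not say that a number stands for an animal. Libraries of the same genotype and number were called a mouse here because in 10 of 10 cases a GFP-high library deviated from its group most like the GFP-low library of its own number. Where nothing states that libraries came from separate animals, p-values measure only the spread between libraries.

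Library totals ran from 20900404 to 27838392 counts. Lgr5, which encodes the stem cell receptor at the reporter's locus, was at 85.4 to 132 CPM (counts scaled to library size) in the 10 GFP-high libraries and at 4.13 to 19.3 CPM in the 10 GFP-low libraries. Itgb7 itself is in neither table, so the genotype could not be checked on its own transcript. From GFP-high to GFP-low cells, 17 of 17 tested stem cell markers fell in each genotype, while 19 of 20 enterocyte, 15 of 15 goblet cell and 20 of 20 Paneth cell markers rose in each. Genes induced by dissociation stress rose for 7 of 17 in WT and 14 of 17 in KO, and none of 13 mitochondrially encoded genes passed. Of all genes tested, 22.0% rose in WT and 26.2% in KO. The WT and KO counts come from separate fits, and no gene was called when the genotypes were compared in an interaction. Paneth cell markers made up 2.08% to 7.87% of the counts in WT GFP-high libraries and 7.14% to 23.8% in WT GFP-low libraries, the highest being those of mice 3 and 8 (23.8% and 23.0%). In KO mice the shares were 2.47% to 5.99% and 3.26% to 13.9%. Of 19 T cell markers 7 were in the GFP-high table, among them Cd3g and Lck, and 6 were in both tables. The defining genes Cd3e, Cd3d and Cd8a and the general leukocyte gene Ptprc were in neither. The 6 markers summed to 13.9 to 60.8 CPM in WT and 22.7 to 95.6 CPM in KO GFP-high libraries. In GFP-low libraries they summed to 7.48 to 61.7 CPM in WT and 16.3 to 89.9 CPM in KO.

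RefSeq promoters (mouse build GRCm38.p6, the 300 bases from 250 before to 50 after a start site) were matched for 32 of the 42 genes. An E2F site, searched on both strands as TTTCGCGC, TTTGGCGC, TTTCCCGC or TTTGCCGC, was present for 14 of these 32 genes (43.8%), compared with 2.61% of all genes with a promoter and 4.77% of those in both count tables. The 14 genes were Casp8ap2, Cdc6, Cdca7, Clspn, Dtl, Hells, Lig1, Mcm3, Mcm5, Mcm6, Mcm7, Pola1, Pold1 and Uhrf1. The CCAAT box, searched as CCAAT, was present for 22 of 32 (68.8%, against 43.8% of genes in both tables), and the cell cycle homology region, searched as TTTGAA, for 6 of 32 (18.8%, against 14.5%). These matches are letters in a window and not measured binding. The stretches below lie upstream of the start site, outside annotated exons, and are shown for 2 helicase subunits, for the gene that later shows the largest fall, and for a substrate receptor of the replication-coupled ubiquitin ligase. The start sites are those of RefSeq. The bases after them occur in a GENCODE M21 transcript of the gene for 33 of 38 promoters, but not for Mcm5 and Mcm6. In GENCODE M21 these 2 genes begin further downstream, at 75109569 and 128359664. Capitals mark the E2F matches, and a match written GCGGGAAA is TTTCCCGC on the opposite strand. In Mcm5 and Mcm6 the capitals run over 12 bases because matches on the 2 strands overlap.
Mcm5, chr8:75109339-75109508, plus strand: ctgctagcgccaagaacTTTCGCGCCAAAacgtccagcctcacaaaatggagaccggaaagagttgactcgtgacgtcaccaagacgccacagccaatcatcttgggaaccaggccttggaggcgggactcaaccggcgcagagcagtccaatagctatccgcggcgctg
Mcm6, chr1:128359706-128359875, minus strand: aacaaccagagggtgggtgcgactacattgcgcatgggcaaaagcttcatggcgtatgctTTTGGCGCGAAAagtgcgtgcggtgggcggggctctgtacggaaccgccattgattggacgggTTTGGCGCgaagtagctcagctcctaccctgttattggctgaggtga
Cdca7, chr2:72476049-72476158, plus strand: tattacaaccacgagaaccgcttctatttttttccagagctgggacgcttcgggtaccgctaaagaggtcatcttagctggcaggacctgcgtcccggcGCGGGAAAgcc
Dtl, chr1:191575545-191575635, minus strand: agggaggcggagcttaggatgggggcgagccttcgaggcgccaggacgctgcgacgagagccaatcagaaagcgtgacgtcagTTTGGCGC

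To ask how replication genes differ between the stem cell gate and the gate beyond it, GFP-low was compared with GFP-high cells within each genotype. In WT mice, 32 of the 42 genes fell in GFP-low cells, none rose and 10 did not pass (edgeR quasi-likelihood test, Benjamini-Hochberg adjusted p under 0.05). Of all 11281 genes tested, 43.4% were called, 22.0% as higher and 21.4% as lower. The median log2 fold change of the 42 genes was -0.65, against -0.01 for all genes, and 41 of the 42 values were below 0. In KO mice 30 genes fell, 1 rose and 11 did not pass, where 50.5% of 11282 genes were called, 26.2% as higher and 24.4% as lower. The KO median was -0.48, against -0.01 for all genes. The falls in WT and KO named the same 30 genes, and Gins2 and Clspn passed in WT and not in KO, a difference between genotypes that was not called when tested as an interaction. With the mouse as a block, Clspn fell in KO too (-0.34, edgeR adjusted p = 0.00288). In bulk RNA, fewer replicating cells and less of these transcripts per cell cannot be told apart. The rise of the differentiated cell markers given above went with the falls, and its part in them was not tested.

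**Figure D1:**
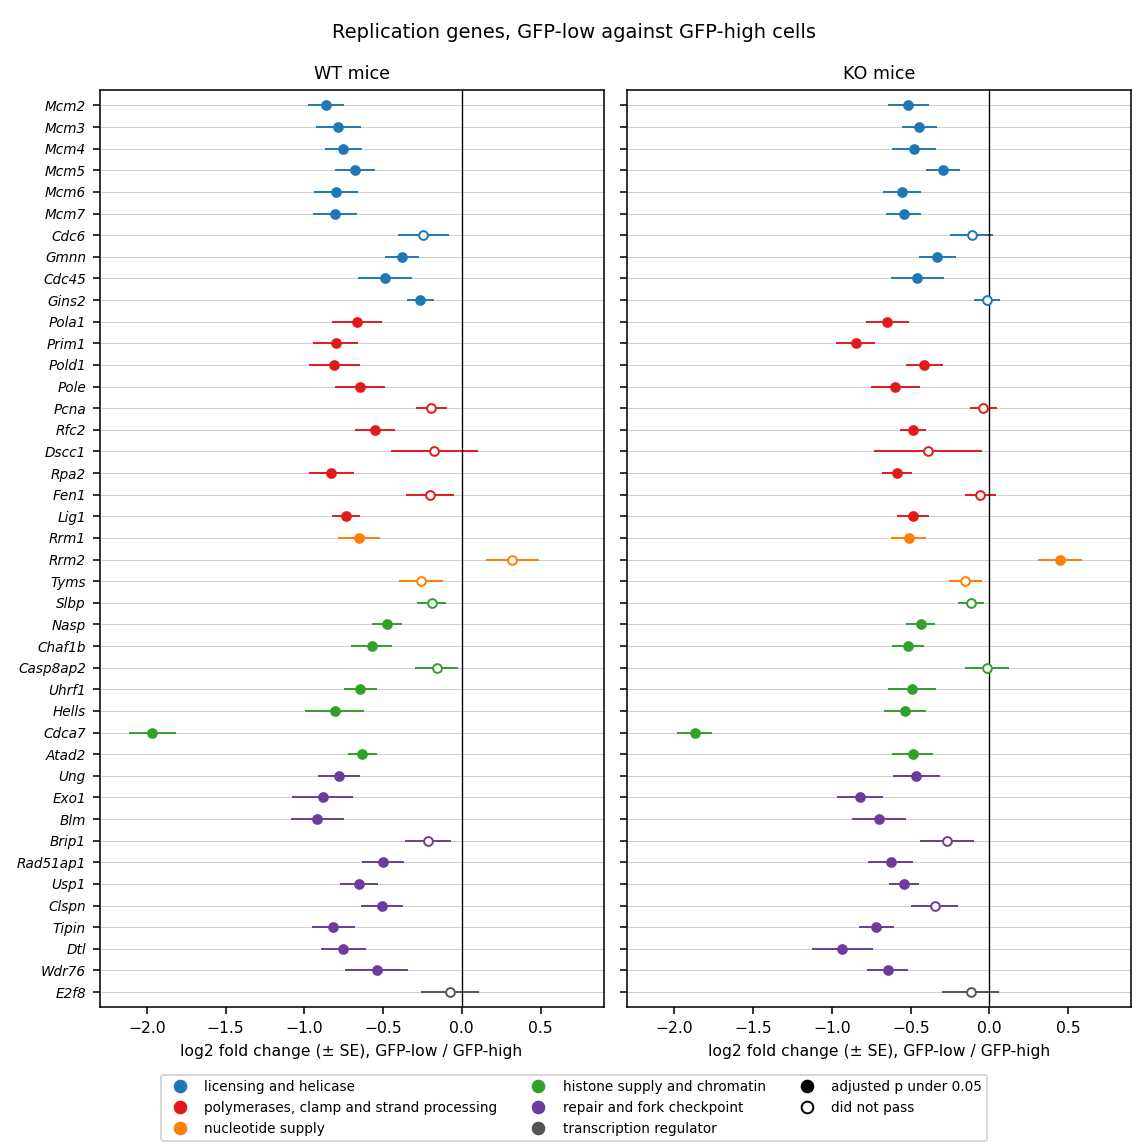
Log2 fold change of each of the 42 replication genes in GFP-low against GFP-high cells, with its standard error, in WT (left) and KO mice (right), coloured by role. Filled points passed an adjusted p of 0.05. Nearly all points lie left of 0, Cdca7 lies farthest left in both panels, and Rrm2 alone lies right of 0.

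The helicase subunits fell together. All 6 of Mcm2 to Mcm7 fell in both genotypes, with a median log2 fold change of -0.79 in WT and -0.50 in KO. Mcm2 (chromosome 6, 88883474 to 88898780, minus strand), which encodes a subunit that also carries histones, was at 80.3, 83.3, 85.3, 84.9 and 88.7 CPM in the GFP-high libraries of WT mice 1, 3, 6, 7 and 8. In the GFP-low libraries of the same mice it was at 50.3, 35.3, 45.0, 57.2 and 44.6 CPM. Every WT GFP-low library thus lay below every GFP-high library, and mouse 3 had the lowest value. The log2 fold change was -0.86 ± 0.12 (SE, n = 5 per group), with an edgeR adjusted p of 9.7e-05. KO mice 2, 3, 4, 5 and 6 had 85.1, 62.4, 60.4, 71.3 and 84.2 CPM in GFP-high and 53.4, 51.2, 41.3, 44.2 and 61.9 CPM in GFP-low libraries. The KO groups overlapped slightly, since GFP-low mouse 6 was above GFP-high mouse 4, although each mouse was lower in its own GFP-low library. The KO log2 fold change was -0.52 ± 0.13 (edgeR adjusted p = 0.00474).

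Mcm4, a subunit of the helicase's catalytic core, stood at 41.2, 38.4, 37.2, 35.5 and 42.7 CPM in WT GFP-high and at 23.6, 18.7, 24.6, 28.03 and 20.8 CPM in WT GFP-low libraries. These groups did not overlap, and the log2 fold change was -0.75 ± 0.12 (edgeR adjusted p = 0.000294). In KO mice Mcm4 went from 37.5, 31.6, 33.8, 32.3 and 41.1 CPM to 31.5, 26.8, 23.5, 17.3 and 26.4 CPM, a log2 fold change of -0.48 ± 0.14 (edgeR adjusted p = 0.0115). The other 4 subunits had WT log2 fold changes between -0.68 (Mcm5) and -0.80 (Mcm6 and Mcm7), and KO values between -0.29 (Mcm5) and -0.55 (Mcm6 and Mcm7). Of the summed CPM of the 6 subunits, Mcm2 held a median of 11.4% in WT GFP-high and 11.1% in WT GFP-low libraries. In KO its medians were 11.1% and 10.6%. The shares were not all this even. That of Mcm5 in KO ran from 20.26% to 22.33% in GFP-high and from 22.36% to 26.46% in GFP-low libraries, without overlap. Its WT medians were 20.7% and 21.6%. Mcm7 had KO medians of 23.8% in GFP-high and 21.9% in GFP-low libraries.

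**Figure D2:**
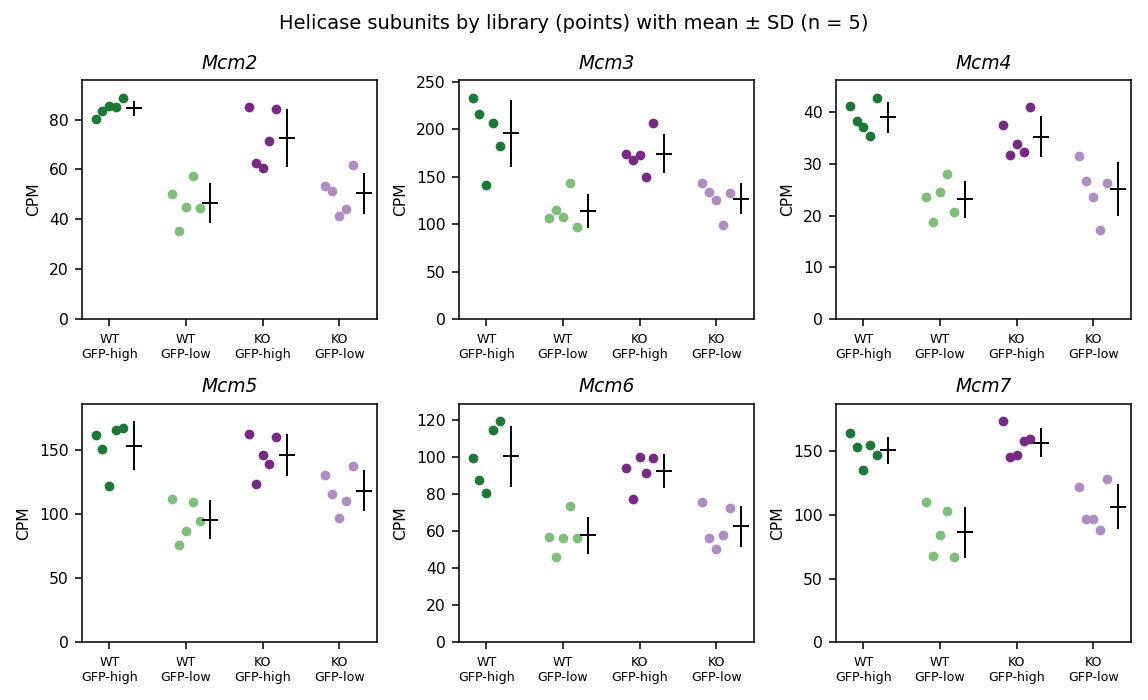
Level of the 6 helicase subunits in CPM (vertical axis, from 0) in each library of the 4 groups, with the mean and SD of 5 libraries beside the points. The GFP-low points of Mcm2 lie at 35.3 to 57.2 CPM in WT mice, below the 80.3 to 88.7 CPM of the WT GFP-high points.

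Of the other 4 licensing and helicase genes, 3 fell in WT and 2 in KO. Gmnn, which encodes geminin, the inhibitor of origin relicensing, fell by 0.38 ± 0.11 in WT and by 0.33 ± 0.12 in KO on the log2 scale. Cdc45, the helicase activator, fell by 0.49 ± 0.17 in WT and by 0.46 ± 0.17 in KO. Gins2, a GINS subunit, fell by 0.26 ± 0.08 in WT (edgeR adjusted p = 0.0234), and its KO log2 fold change was -0.01 ± 0.08 (adjusted p = 0.895). Cdc6, which loads the helicase, did not pass in either genotype, at -0.24 ± 0.16 and -0.11 ± 0.13.

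Of the 10 genes for polymerases, clamp and strand processing, 7 fell in each genotype. Lig1 (chromosome 7, 13277283 to 13311433, plus strand) encodes the ligase that joins Okazaki fragments. It stood at 132, 122, 112, 120 and 118 CPM in WT GFP-high and at 71.6, 65.5, 71.0, 83.7 and 70.4 CPM in WT GFP-low libraries, without overlap. Its log2 fold change was -0.74 ± 0.09 (edgeR adjusted p = 4.19e-05). In KO mice it was at 117, 116, 112, 108 and 120 CPM and at 92.2, 70.6, 68.3, 79.3 and 95.6 CPM. These groups did not overlap either, with a log2 fold change of -0.48 ± 0.10 (edgeR adjusted p = 0.00132). Prim1, the catalytic primase subunit, fell by 0.80 ± 0.14 in WT and by 0.85 ± 0.12 in KO. Rpa2, a subunit of the single-strand binding protein, fell by 0.83 ± 0.14 and by 0.59 ± 0.09. The catalytic polymerase subunits Pola1, Pold1 and Pole and the clamp loader subunit Rfc2 completed the 7, with WT log2 fold changes of -0.67, -0.81, -0.65 and -0.55 and KO values of -0.65, -0.41, -0.60 and -0.48.

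The clamp itself and the flap nuclease that works on it did not pass. Pcna, picked out here after its values were seen, stood at 171, 178, 148, 195 and 177 CPM in WT GFP-high and at 153, 158, 151, 167 and 131 CPM in WT GFP-low libraries. The groups overlapped, and the log2 fold change was -0.19 ± 0.10 in WT (edgeR adjusted p = 0.125) and -0.04 ± 0.08 in KO (adjusted p = 0.716). Fen1, which trims Okazaki fragment flaps, had values of -0.20 ± 0.15 and -0.06 ± 0.10. Dscc1, a subunit of an alternative clamp loader, was the least expressed of the 42 genes by count, at 0.891 to 4.04 CPM over the 20 libraries, and its values of -0.17 ± 0.28 and -0.39 ± 0.34 carried the largest errors of the set.

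The 3 genes of nucleotide supply went different ways. Rrm1 (chromosome 7, 102441695 to 102469771, plus strand), the large subunit of ribonucleotide reductase, stood at 101, 98.8, 70.2, 103 and 87.4 CPM in WT GFP-high and at 52.5, 61.3, 52.7, 74.4 and 52.2 CPM in WT GFP-low libraries. Apart from GFP-low mouse 7, which was above GFP-high mouse 6, the groups were separate, and the log2 fold change was -0.65 ± 0.13 (edgeR adjusted p = 0.00187). In KO mice Rrm1 went from 108, 92.8, 87.8, 86.3 and 106 CPM to 74.6, 63.5, 56.9, 58.6 and 80.4 CPM, without overlap, a log2 fold change of -0.51 ± 0.11 (edgeR adjusted p = 0.00182).

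Rrm2 (chromosome 12, 24708241 to 24714146, plus strand), the small subunit of the same enzyme, was the 1 gene of the 42 above 0 in both genotypes. It was at 41.8, 43.2, 31.4, 54.5 and 42.4 CPM in WT GFP-high and at 48.4, 50.8, 40.6, 74.1 and 52.4 CPM in WT GFP-low libraries. KO mice had 47.3, 42.5, 34.8, 39.5 and 45.1 CPM in GFP-high and 73.7, 52.8, 47.0, 43.8 and 65.9 CPM in GFP-low libraries. The groups overlapped in both genotypes, although all 5 WT and all 5 KO mice were higher in their own GFP-low library. The log2 fold change was 0.32 ± 0.17 in WT (edgeR adjusted p = 0.141) and 0.45 ± 0.14 in KO, where it rose (adjusted p = 0.0166). With the mouse as a block, Rrm2 rose in WT too (0.31, adjusted p = 0.0075). Scaling by library totals alone shifts the median of all genes to -0.37 in WT and -0.27 in KO. Rrm2 was then at -0.04 in WT and at 0.20 in KO (edgeR adjusted p = 0.320). Its direction in WT and its call in KO thus depend on the scaling. The ratio of Rrm2 to Rrm1 counts does not depend on it. That ratio ran from 0.415 to 0.530 in WT GFP-high and from 0.771 to 1.005 in WT GFP-low libraries, and from 0.396 to 0.458 and from 0.747 to 0.989 in KO. The GFP-low ratios lay above the GFP-high ratios in both genotypes without overlap, which shows an unequal change of both subunits. Tyms, thymidylate synthase, did not pass, at -0.26 ± 0.14 in WT and -0.15 ± 0.10 in KO, but fell in WT with the mouse as a block (-0.26, edgeR adjusted p = 0.0196).

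**Figure D3:**
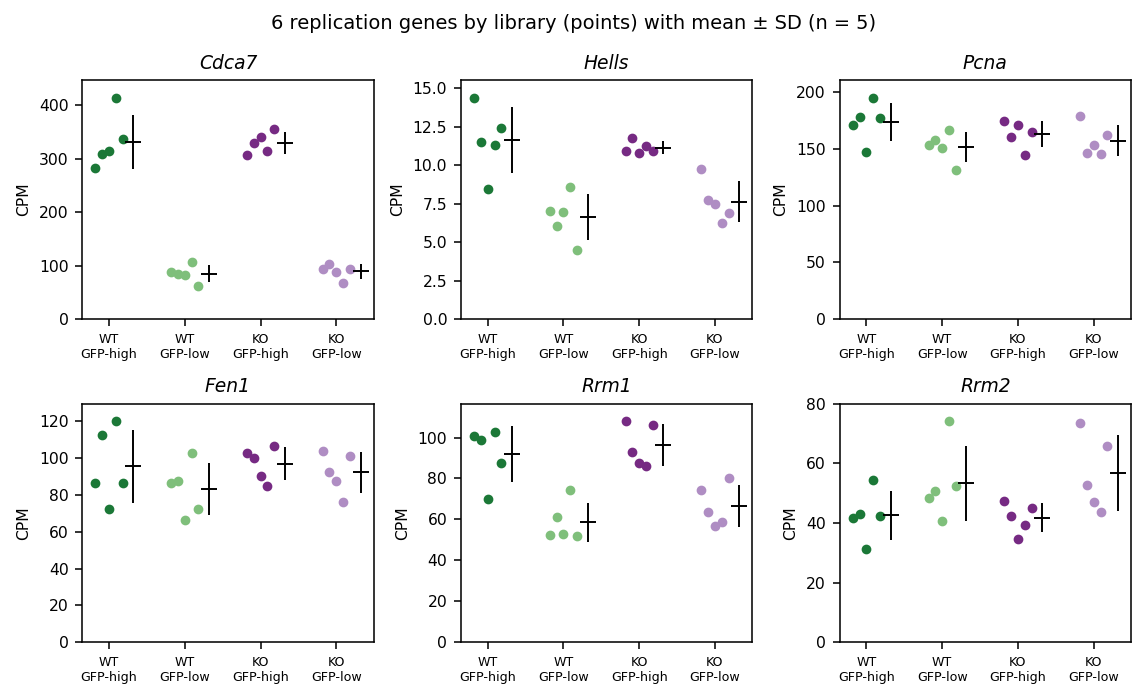
Level of 6 replication genes in CPM (vertical axis, from 0) in each library of the 4 groups, with the mean and SD of 5 libraries. Cdca7 drops from at least 282 to at most 107 CPM in WT mice, and the groups of Pcna and Fen1 overlap. Rrm1 is lower in GFP-low cells, although in WT GFP-low mouse 7 lies above GFP-high mouse 6. The Rrm2 groups overlap, although every mouse was higher in its own GFP-low library.

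Of the 8 genes of histone supply and chromatin, 6 fell in each genotype. The largest fall of all 42 genes was that of Cdca7 (chromosome 2, 72476159 to 72486893, plus strand), which encodes a zinc finger protein that recruits the chromatin remodeller encoded by Hells. Cdca7 was at 282, 308, 313, 413 and 337 CPM in WT GFP-high and at 88.5, 85.0, 82.2, 107 and 61.4 CPM in WT GFP-low libraries. KO mice had 306, 330, 341, 314 and 355 CPM in GFP-high and 94.3, 103, 87.1, 67.4 and 94.4 CPM in GFP-low libraries. The lowest GFP-high library was far above the highest GFP-low library in both genotypes. The log2 fold change was -1.96 ± 0.15 in WT (edgeR adjusted p = 1.69e-06) and -1.87 ± 0.11 in KO (adjusted p = 5e-08). The next largest WT fall was that of Blm at -0.92. Hells itself was low, at 8.45 to 14.4 CPM in WT GFP-high libraries, and fell by 0.81 ± 0.19 in WT and by 0.54 ± 0.13 in KO.

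Atad2, an ATPase with a bromodomain, stood at 56.9, 52.8, 49.9, 48.3 and 46.4 CPM in WT GFP-high and at 32.99, 29.6, 32.9, 36.0 and 32.5 CPM in WT GFP-low libraries. Uhrf1, which guides maintenance DNA methylation at the fork, stood at 77.2, 76.0, 67.7, 66.1 and 72.9 CPM and at 47.0, 39.7, 43.5, 55.8 and 44.2 CPM. For both genes every WT GFP-low library was below every WT GFP-high library, while the KO groups overlapped. The edgeR log2 fold changes were -0.63 ± 0.09 for Atad2 (adjusted p = 0.000176) and -0.64 ± 0.10 for Uhrf1 (adjusted p = 0.00035), and in KO mice -0.49 ± 0.13 and -0.49 ± 0.15. The histone chaperone gene Nasp and the chromatin assembly factor gene Chaf1b also fell in both genotypes, by 0.47 and 0.57 in WT and by 0.44 and 0.52 in KO. Slbp, whose product binds histone mRNA, did not pass (-0.19 ± 0.09 and -0.12 ± 0.08), nor did Casp8ap2, which takes part in histone gene expression (-0.16 ± 0.14 and -0.02 ± 0.14).

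Among the 10 genes of repair and the fork checkpoint, 9 fell in WT and 8 in KO. Tipin, a partner of Timeless in the fork protection complex (chromosome 9, 64281581 to 64305424, plus strand), had the smallest p of this role in WT. Its values were 71.4, 84.1, 59.9, 70.1 and 60.1 CPM in WT GFP-high and 36.1, 42.2, 32.998, 50.7 and 34.4 CPM in WT GFP-low libraries. In KO mice they were 68.7, 69.4, 74.8, 61.4 and 78.2 CPM and 48.7, 38.8, 37.5, 37.0 and 50.4 CPM. The groups were separate in both genotypes, with log2 fold changes of -0.82 ± 0.14 (edgeR adjusted p = 0.000524) and -0.72 ± 0.11 (adjusted p = 0.000122). The helicase gene Blm fell by 0.92 and 0.70, the nuclease gene Exo1 by 0.88 and 0.82, and Dtl, whose promoter stretch is printed above, by 0.75 and 0.93 in WT and KO. Ung, uracil DNA glycosylase, Usp1, a deubiquitinase that acts on PCNA, Rad51ap1, which acts in homologous recombination, and Wdr76 also fell in both. Clspn, which encodes the checkpoint mediator claspin, fell by 0.50 ± 0.13 in WT, and its KO value was -0.35 ± 0.15 (edgeR adjusted p = 0.0669, and 0.0457 in a fit of all 20 libraries). Brip1, a repair helicase, did not pass, at -0.22 ± 0.14 and -0.27 ± 0.17.

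The 1 transcription regulator of the set, E2f8, an atypical E2F that represses E2F targets, showed no passing difference. It stood at 18.01, 19.2, 10.3, 14.5 and 12.2 CPM in WT GFP-high and at 12.5, 13.2, 13.9, 18.6 and 12.1 CPM in WT GFP-low libraries. The groups overlapped widely, with log2 fold changes of -0.07 ± 0.18 in WT (edgeR adjusted p = 0.766) and -0.12 ± 0.18 in KO (adjusted p = 0.607). Of the 14 genes with an E2F match, 12 fell in WT and 11 in KO, and of the 18 with a promoter but no match 11 fell in each genotype. No test was made of that difference.

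Seen library by library, all GFP-low values lay below all GFP-high values for 25 of the 42 genes in WT (59.5%, against 13.7% of all genes) and for 22 in KO (52.4%, against 17.3%). Within each mouse, 35 to 41 of the 42 genes were lower in the GFP-low library of WT mice and 37 to 39 in KO mice. Of all genes, 50.2% to 52.0% were lower in WT mice and 49.7% to 51.7% in KO mice. The summed level of the 42 genes was 3024 ± 253 CPM (SD, n = 5) in WT GFP-high and 1938 ± 224 CPM in WT GFP-low libraries, and 2962 ± 177 and 2117 ± 224 CPM in KO. Single libraries stood apart across many genes at once. WT GFP-low mouse 7 was the highest of its group for 31 of the 42 genes, and WT GFP-high mouse 6 was the lowest for 28. In KO GFP-low cells mouse 2 was the highest for 22 genes and mouse 5 the lowest for 23, with Paneth cell marker shares of 3.26% and 9.63%, the 2 lowest of that group, and mouse 6, at 13.1%, was the highest for 13 and the lowest for none. In WT GFP-low cells the summed levels of mice 3 and 8, with the highest Paneth cell marker shares, were 1845 and 1743 CPM. That of mouse 6, with the lowest share (7.14%), was 1814 CPM. These levels are TMM-scaled. As percent of counts, the 42 genes were at 0.127% in mouse 8, 0.135% in mouse 3, 0.177% in mouse 6, 0.183% in mouse 1 and 0.215% in mouse 7. Without the WT GFP-low libraries of mice 3 and 8, 28 genes fell in WT, with a median of -0.54, and Cdc45, Gins2, Clspn and Wdr76 no longer passed. What these markers contribute to the falls was not tested.

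**Figure D4:**
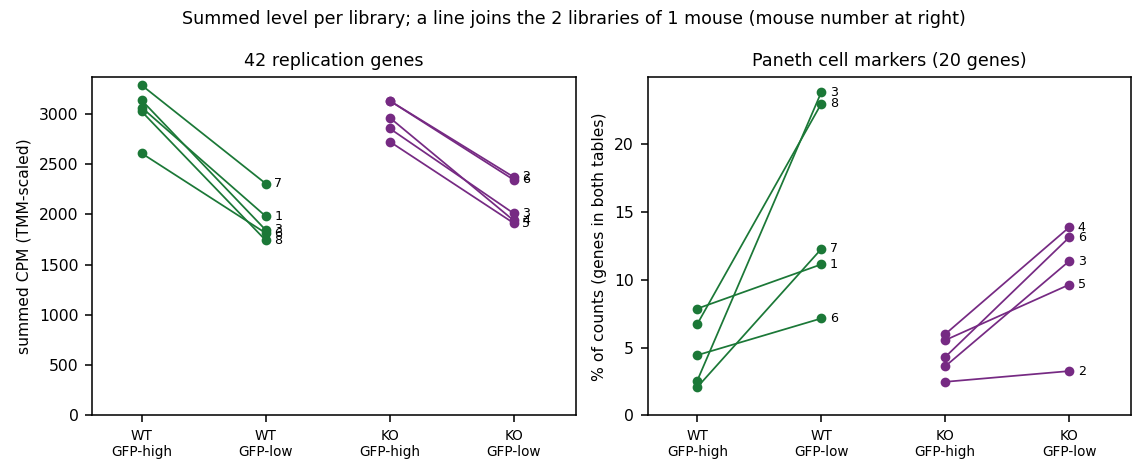
Summed level of the 42 replication genes in TMM-scaled CPM (left) and share of 20 Paneth cell markers in the counts of genes in both tables, in percent (right), with a line joining the GFP-high and GFP-low library of a mouse and the mouse number at the right. Every line falls on the left and rises on the right. The lowest WT GFP-low sums on the left are 1743 CPM (mouse 8) and 1814 CPM (mouse 6). The panels use different scales. As percent of counts, the 42 genes were lowest in WT GFP-low mice 8 (0.127%) and 3 (0.135%).

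Some calls changed when 1 library was left out, for several genes whichever of many libraries that was. In WT, the fall of Cdc45 lost its call without GFP-high mouse 1, 3, 7 or 8 or GFP-low mouse 3 or 8 (-0.49 to -0.44), that of Gins2 without mouse 3 of either gate (-0.24 and -0.22), and that of Wdr76 without GFP-high mouse 1, 6, 7 or 8 or GFP-low mouse 1, 3, 6 or 8 (-0.55 to -0.39). Tyms fell once GFP-low mouse 7 was left out (-0.36). In KO, calls were lost for Cdc45 without GFP-high mouse 2, 3, 4 or 6 or GFP-low mouse 3, 4 or 5 (-0.47 to -0.37), and for Gmnn (-0.33 to -0.27) and Mcm5 (-0.30 to -0.23) without GFP-high mouse 2, 4 or 6 or GFP-low mouse 3, 4 or 5. The call for Ung was lost without GFP-high mouse 6 (-0.35), and Clspn fell without GFP-high mouse 5 or GFP-low mouse 4 (-0.44 and -0.43). Reads of some genes can be shared with others. Of the 50-base stretches in their annotated transcripts, 76.7% in Fen1, 65.4% in Gins2, 23.3% in Mcm7, 21.4% in Usp1, 19.1% in Pcna, 16.0% in Rfc2 and 15.4% in Uhrf1 also occur in transcripts of other genes. Exons of Fen1, Gins2, Mcm7, Rfc2 and E2f8 overlap those of other genes over at least 10% of their bases, and the sources used here do not give the strand of the libraries, so the values of these 8 genes are uncertain.

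Levels between genes were compared as CPM per kilobase of annotated exons (GENCODE M21). In WT GFP-high cells Cdca7 ranked first of the 42 genes, at 103 ± 15.6 CPM per kilobase (SD, n = 5), followed by Pcna at 72.5, Mcm3 at 52.2, Fen1 at 39.4 and Gmnn at 39.0. In WT GFP-low cells Cdca7 was at 26.5 ± 5.05 and Pcna at 63.4 CPM per kilobase, so their order was turned. The median of the 42 genes was 10.7 CPM per kilobase in WT GFP-high and 6.93 in WT GFP-low cells, against 4.18 and 4.44 for all genes with a length. It was 10.8 in KO GFP-high and 7.12 in KO GFP-low cells.

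Other genes of the pathway fell as well. For scale, 21.4% of all genes tested fell and 22.0% rose in WT, and 24.4% fell and 26.2% rose in KO. Of 54 further genes of the replication machinery, 36 fell in WT (median log2 fold change -0.53) and 31 in KO (-0.44), with none rising in either. They included Dnmt1, the maintenance DNA methyltransferase (-0.95 ± 0.12 in WT and -0.59 ± 0.12 in KO), the clamp loader gene Rfc3 (-0.73 ± 0.10 and -0.55 ± 0.08) and Gins1 (-0.87 ± 0.12 and -0.82 ± 0.13). Of 22 further nucleotide synthesis genes, 16 fell and 2 rose in WT, and 12 fell and 2 rose in KO. The purine synthesis gene Impdh2 fell by 0.96 ± 0.11 in WT and by 0.88 ± 0.08 in KO, whereas Samhd1, which degrades deoxynucleotides, rose by 0.96 ± 0.10 and 0.90 ± 0.16. Of 29 further fork protection and repair genes, 19 fell in WT and 18 in KO, where 1 rose. Wee1, a kinase that restrains entry into mitosis, fell by 0.99 ± 0.17 in WT and by 1.06 ± 0.16 in KO on the log2 scale.

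Genes that regulate entry into S phase were called in both directions, more often as lower than as higher. Of 25 genes for E2F and RB proteins and S phase cyclins, 11 fell and 2 rose in WT. There 21.4% of all genes fell and 22.0% rose. In KO 5 of the 25 fell and 3 rose, where 24.4% of all genes fell and 26.2% rose. Rb1, the retinoblastoma repressor of E2F, rose by 1.36 ± 0.17 in WT and 1.52 ± 0.19 in KO, and E2f2 rose by 1.31 ± 0.20 and 1.69 ± 0.16, while cyclin A2 (Ccna2) fell by 0.54 ± 0.12 and 0.51 ± 0.16. Of 14 genes of cell cycle exit, 7 rose in WT and 8 rose and 1 fell in KO, and the inhibitor gene Cdkn1a rose by 2.01 ± 0.39 and 2.20 ± 0.20. That list as written shares Krt20 with the enterocyte markers and Btg2 with the dissociation stress genes. Of 50 genes of G2 and mitosis, 37 fell in WT (median -0.54) and 44 in KO (-0.65). Replication-dependent histone genes, many of which lack a poly(A) tail, were mostly without a call, with 2 of 26 falling and 1 rising in WT and 3 of 27 falling and 1 rising in KO.

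To ask whether the loss of Itgb7 goes with a change in replication genes, KO was compared with WT within each gate. In GFP-high cells none of the 42 genes passed, and 0.0% of all 11745 genes were called (edgeR). At an unadjusted p under 0.05 there were 2 of the 42 genes and 1150 of all genes, and DESeq2 called 143 genes, none of them among the 42. The median log2 fold change of the 42 genes was -0.00, with 22 values below 0 and a range from -0.39 (Ung) to 0.30 (Dtl). Ung was at 18.6, 15.5, 17.7, 15.5 and 20.8 CPM in WT and at 11.6, 12.4, 13.3, 12.3 and 17.4 CPM in KO GFP-high libraries. All KO values but that of mouse 6 lay below all WT values, with a log2 fold change of -0.39 ± 0.13 (edgeR adjusted p = 0.328). Dtl was at 14.2, 16.7, 14.3, 16.4 and 18.1 CPM in WT and at 24.2, 16.6, 20.2, 17.2 and 19.3 CPM in KO. The Dtl groups overlapped, at 0.30 ± 0.12 (edgeR adjusted p = 0.437). Mcm2, next by p and printed by library above, was at -0.21 ± 0.10 (edgeR adjusted p = 0.514).

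In GFP-low cells again none of the 42 genes passed, where 0.00849% of all 11778 genes, that is 1 gene, was called. At an unadjusted p under 0.05 there were 3 of the 42 genes and 744 of all genes, and DESeq2 called 12 genes, none of the 42. The median of the 42 genes was 0.10, against -0.004 for all genes, and 8 of the 42 values were below 0. Without the WT libraries of mice 3 and 8 it was 0.02, with 19 values below 0, and with 1 library left out it ran from 0.034 (KO mouse 2) to 0.19 (WT mouse 7). The 20 Paneth cell markers had a median of -0.76 in the same comparison, and their part in the values of the replication genes was not tested. Gins2 stood at 98.8, 81.2, 95.5, 92.2 and 94.4 CPM in WT and at 99.1, 108, 105, 125 and 109 CPM in KO GFP-low libraries. It was the 1 gene of the 42 whose KO values all lay above the WT values (2.38%, against 0.709% of all genes), by a narrow margin, with a log2 fold change of 0.24 ± 0.10 (edgeR adjusted p = 0.752). Pold1 stood at 62.4, 35.1, 46.4, 34.9 and 40.9 CPM in WT and at 56.3, 48.5, 49.4, 74.5 and 64.7 CPM in KO, with overlap, at 0.42 ± 0.17 (edgeR adjusted p = 0.764). Mcm5 stood at 112, 75.9, 87.1, 109 and 94.3 CPM in WT and at 130, 116, 97.1, 110 and 137 CPM in KO, also with overlap, at 0.30 ± 0.13 (edgeR adjusted p = 0.77).

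**Figure D5:**
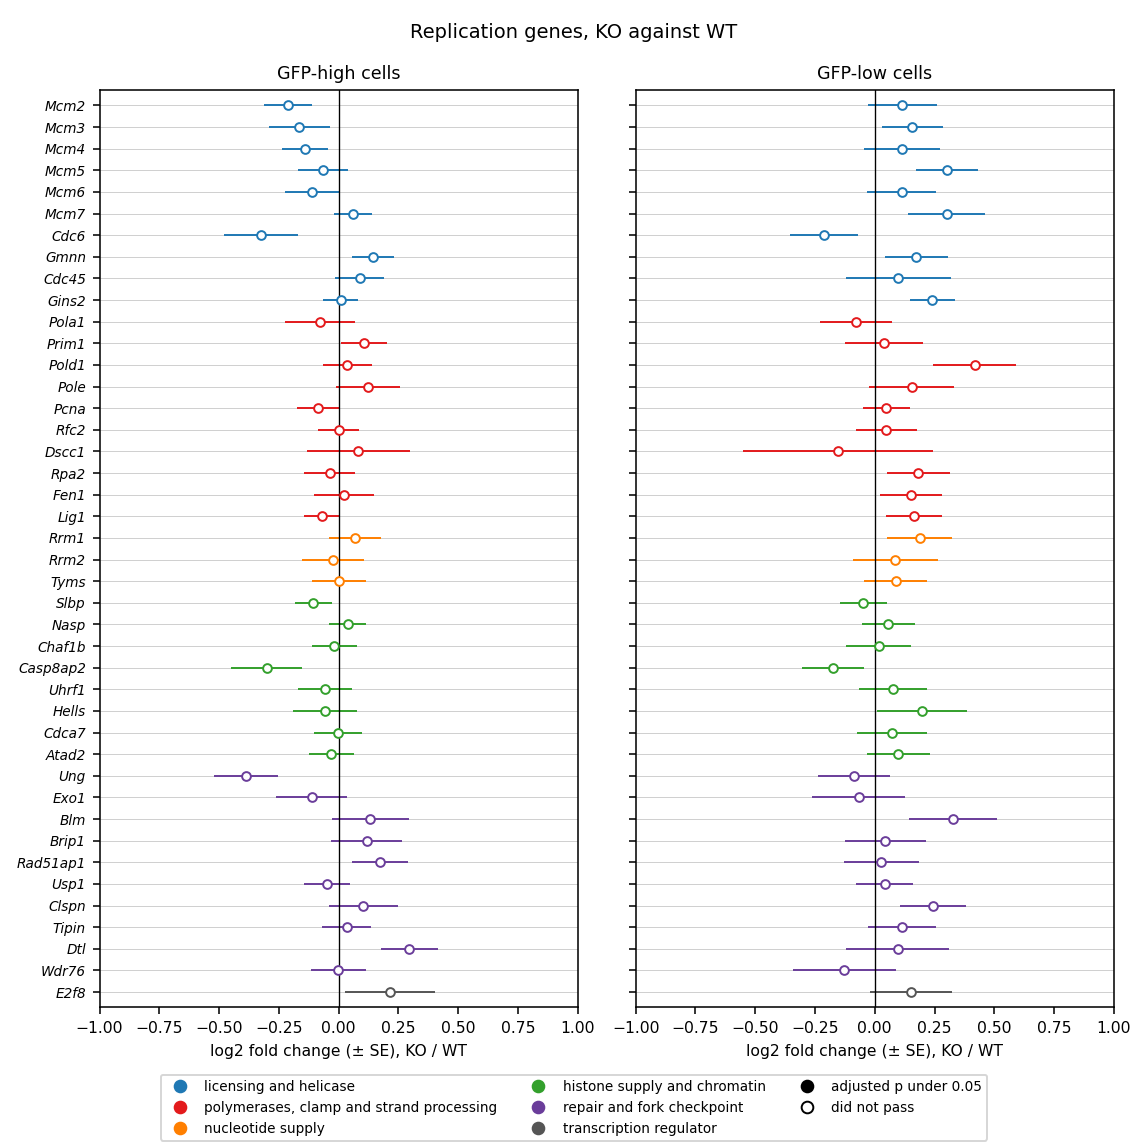
Log2 fold change of each of the 42 replication genes in KO against WT, with its standard error, in GFP-high (left) and GFP-low cells (right), coloured by role. Open points did not pass an adjusted p of 0.05, and all points are open. The values range from -0.39 (Ung) to 0.30 (Dtl) on the left, and on the right the highest is Pold1 at 0.42.

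The KO against WT comparison could have missed changes of this size. Counts were simulated with 50 genes changed at each size. At the smallest size simulated, which was below 1.5-fold, the test found 4% of changes in GFP-high and 2% in GFP-low cells. It found 40% of 1.5-fold and 92% of 2-fold changes in GFP-high cells, and 24% and 84% in GFP-low cells. Of 50 genes of G2 and mitosis in the same GFP-high comparison, 40 had an unadjusted edgeR p under 0.05, with a median of 0.35, although none passed adjustment. Of 54 further replication machinery genes 5 had such a p, with a median of 0.03.

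Because the falls from GFP-high to GFP-low cells were larger in WT for 35 of the 42 genes, counting the smaller rise of Rrm2 in WT, the difference of the 2 effects was tested as an interaction over all 20 libraries. None of the 42 genes and none of all 11284 genes was called by edgeR, nor any by DESeq2, and 2 of the 42 and 353 of all genes had an unadjusted p under 0.05. That edgeR fit did not pair the libraries of a mouse. With the mouse as a block again no gene was called, and 4 of the 42 and 776 of all genes had an unadjusted edgeR p under 0.05. The median difference of the 42 genes, KO minus WT, was 0.12 on the log2 scale, against 0.004 for all genes. It was 0.06 without the WT GFP-low libraries of mice 3 and 8. With 1 library left out it was 0.055 to 0.18 (lowest without KO GFP-low mouse 6, highest without WT GFP-low mouse 7). The smallest p was that of Mcm5, at 0.38 ± 0.17 (edgeR adjusted p = 1), followed by Gins2 at 0.24 ± 0.11 (adjusted p = 1) and Mcm2 at 0.33 ± 0.18 (adjusted p = 1). The genotypes were not shown to differ in how replication genes fell. In counts simulated as above and fitted without the block, 74% of 2-fold and 18% of 1.5-fold interactions were recovered. At the smallest size simulated, which was below 1.5-fold, 0% were recovered.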

How the data were processed

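For each gate the authors deposited a table of expected counts for its 10 libraries. The submitters' processing notes list RSEM, TopHat2 and Bowtie2 beside build mm10; the sources used here give neither their roles nor the strand of the libraries. Reads that match several genes are divided between them by RSEM. Of the deposited values, 13.7% were not whole, and all were rounded. The lowest mean count of an entry was 17.0 and 16.8, so genes below that are not analysed here. Spreadsheet conversion had turned 16 and 17 names into dates, and entries with repeated names were left out of comparisons between gates, for which 11284 genes remained. No 2 libraries of a group were identical.

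Groups came from the labelled genotype and GFP gate. Counts were tested with edgeR 4.0.16 (R 4.3.3): TMM factors, filterByExpr with a minimum count of 10, quasi-likelihood F test and Benjamini-Hochberg adjustment over all genes tested at 0.05. All 42 genes passed the filter in every comparison. Each comparison of genotypes within a gate, or of gates within a genotype, used its 10 libraries, and the interaction used all 20. The SE is the log2 fold change divided by the square root of F. Levels are CPM with TMM factors over 20 libraries, and shares use the counts of the 11284 genes. GFP-high and GFP-low libraries of the same genotype and number correlated at 0.169 to 0.625 in their deviations from the group means, each best with its own number in 10 of 10 cases, so the mouse was used as a block in an alternative fit. Other alternatives were DESeq2 1.42.0 and its size factors, library totals, no filter, all 20 libraries in 1 fit, and leaving out each library. Leaving out WT GFP-low mice 3 and 8 together was chosen after seeing the data. The pipeline was tested on simulated counts.

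Values by library are given for the 6 genes with the smallest p in WT between gates, genes called against the main direction, the 3 genes with the smallest p in KO against WT or the interaction where none was called, and the gene with the smallest p of each role; other lists are represented by genes of small p. The members and lists were chosen with earlier results of these data known. Promoters are RefSeq's on GRCm38.p6, and positions and lengths are from GENCODE M21 on the same assembly.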

Additional observations from a re-analysis of the deposited data

Results flagged for a closer look

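Within the 4 groups of 5 libraries, 10 of 168 gene and group combinations (5.95%) had 1 library whose gap to the nearest other exceeded the 95% critical value for 5 samples, where chance gives about 5%. In WT GFP-low mouse 7, Rpa2 was at 68.2 CPM (nearest other 51.2), Chaf1b at 40.5 CPM (29.2) and E2f8 at 18.6 CPM (13.9). In KO GFP-high mouse 2, Brip1 was at 10.8 CPM (7.38) and E2f8 at 24.9 CPM (16.0). Lower than the rest were Cdc6 in KO GFP-low mouse 5 at 12.0 CPM (16.3), Slbp in KO GFP-high mouse 4 at 39.97 CPM (46.8) and Nasp in KO GFP-high mouse 5 at 85.5 CPM (98.8). Higher than the rest were Pole in WT GFP-high mouse 1 at 29.3 CPM (22.3) and Ung in KO GFP-high mouse 6 at 17.4 CPM (13.3).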

How the results depend on the processing

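Under every alternative, 28 of the 32 WT and 26 of the 31 KO calls between gates held; Cdc45, Gins2, Clspn and Wdr76 were lost under some in WT, and Mcm5, Gmnn, Cdc45, Rrm2 and Ung in KO. Leaving out 1 library gave 4265 to 4800 called genes, 29 to 33 falling replication genes and a median of -0.73 to -0.59 in WT, and 5182 to 5619, 26 to 31 and -0.54 to -0.44 in KO. With library totals alone the medians were -0.98 in WT and -0.74 in KO, 39 and 38 of the 42 genes fell and none rose, Rrm2 in WT turned to -0.036, and calls among all genes split into 1188 higher and 4892 lower in WT and 1777 and 4737 in KO; the KO against WT median in GFP-low cells became 0.25 and that of the interaction 0.23. With the mouse as replicate block, 33 genes fell and 1 rose in WT and 31 fell and 1 rose in KO; Tyms (-0.26, edgeR adjusted p = 0.0196) passed in WT and Clspn (-0.34, adjusted p = 0.00288) in KO. Without WT GFP-low mice 3 and 8 the WT median was -0.54.

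For KO against WT, DESeq2 called 143 genes in GFP-high and 12 in GFP-low cells. A block on the number, which pairs different animals and only 2 numbers (3 and 6), gave 122 and 36 called genes and medians of 0.090 and 0.26, and leaving out 1 library gave 0 to 1 and 1 to 2 called genes. No replication gene was called in KO against WT or the interaction under any alternative. Beside Rrm2 above, signs turned for E2f8 in both genotypes and for Gins2, Fen1 and Casp8ap2 in KO, none of which had passed there. Leaving out 1 library moved E2f8 between -0.20 and 0.034 in WT and between -0.23 and 0.050 in KO, and in KO Gins2 between -0.067 and 0.021, Fen1 between -0.10 and 0.0046, and Casp8ap2 between -0.086 and 0.064. E2f8 was at 0.023 in WT without GFP-low mice 3 and 8. The cause was not tested.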
